A study of Mus musculus with 2 samples.

Results

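The genes described here build, load and display the molecules that show antigen to T cells. They were selected by name, not by their values: each probe set (the array's group of probes for 1 transcript) had to name exactly 1 gene in GEO's platform annotation, and that gene had to carry a symbol starting with H2- or be 1 of 15 listed genes. The rule found 52 probe sets of 48 genes among 22180 genes measured alone. Of the 48, 34 had an H2- symbol and 14 were listed genes. Cd74, the remaining listed gene, shared its probe set with a microRNA gene and is given apart.

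Colon RNA came from male ICR mice, an outbred stock, 7 weeks old and labelled healthy. The control group ate a diet without psyllium, and the psyllium group ate one with 10% psyllium, a gel-forming plant fibre, for 5 days. One array was hybridised per diet. How many mice each array represents and which H2 alleles they carried are not given in the labels, so with 1 array per diet the H2 alleles and the diet cannot be told apart. No difference below has a replicate check, an error or a test.

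Class I molecules pair an H2 heavy chain with beta-2-microglobulin and carry peptides cut in the cytosol by the proteasome. The peptides are pumped into the endoplasmic reticulum by the TAP transporter and loaded with the help of tapasin, for display to CD8 T cells and natural killer cells. Class II molecules pair an alpha with a beta chain, are escorted by the invariant chain Cd74, and carry peptides cut in endosomes for CD4 T cells. In the gut, class I is made by nearly all nucleated cells, whereas class II is made mainly by dendritic cells, macrophages and B cells and can be induced in the epithelium. Interferon gamma raises both routes, through Nlrc5 and Ciita among others.

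The promoters are shown first because most members with a listed promoter share 1 short element, the CCAAT box. Of the 48 members, 35 had a promoter window in the RefSeq table of build GRCm38.p6, from 250 bases before to 50 bases after a gene start. The letters ATTGG, the core of the CCAAT box that forms the Y box of class I and class II promoters, were searched on both strands. They occurred in 27 of the 35, against 37.4% of all 32851 windows. By group they were in 8 of 8 class II genes, 14 of 16 class I genes and 4 of 9 processing genes with a window. Here and in the searches below a member counted if any window of that gene matched. The share of all windows counts single windows instead, so the 2 figures are not fully alike. The stretches below are aligned on this element, with every copy of it in capitals on either strand. They are those of 3 class II genes, 2 class I genes and B2m: H2-Eb1 at chr17:34305738-34305847 (plus strand), H2-Aa at chr17:34287832-34287941 (minus), H2-DMb1 at chr17:34153060-34153169 (plus), H2-K1 at chr17:34000324-34000433 (minus), H2-Q4 at chr17:35379468-35379577 (plus) and B2m at chr2:122147564-122147673 (plus).
H2-Eb1: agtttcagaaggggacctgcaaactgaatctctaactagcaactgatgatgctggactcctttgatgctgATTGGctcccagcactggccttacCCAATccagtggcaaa
H2-Aa: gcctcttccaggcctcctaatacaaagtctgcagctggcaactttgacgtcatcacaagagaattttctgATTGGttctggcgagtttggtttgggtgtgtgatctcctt
H2-DMb1: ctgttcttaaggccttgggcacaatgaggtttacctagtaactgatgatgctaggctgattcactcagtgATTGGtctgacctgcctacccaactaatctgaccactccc
H2-K1: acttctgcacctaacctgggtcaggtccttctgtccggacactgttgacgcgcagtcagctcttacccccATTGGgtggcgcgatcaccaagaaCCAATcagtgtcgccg
H2-Q4: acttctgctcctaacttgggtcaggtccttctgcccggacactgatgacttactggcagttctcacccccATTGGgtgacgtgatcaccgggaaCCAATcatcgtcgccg
B2m: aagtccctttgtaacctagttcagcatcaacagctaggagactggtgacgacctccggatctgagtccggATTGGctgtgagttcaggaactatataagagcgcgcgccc

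In H2-Eb1, H2-K1 and H2-Q4 a second copy, on the other strand, follows the first. The H2 genes of a class are related copies, so their promoters are not separate cases. A match is a description of the letters and not a bound site.

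The letters GAAA, then any 2 bases, then GAAA, which form the core of the element that interferon-regulated factors bind, were also searched on both strands. They lay in 5 of the 35 members with a window (B2m, Psme1, Erap1, Ctss and H2-T23), against 3.44% of all windows. The stretches of these 5 are shown with the element in capitals: B2m at chr2:122147523-122147582, Psme1 at chr14:55578478-55578537, Erap1 at chr13:74639824-74639883 and Ctss at chr3:95526740-95526799, all on the plus strand, and H2-T23 at chr17:36032791-36032850 on the minus strand.
B2m: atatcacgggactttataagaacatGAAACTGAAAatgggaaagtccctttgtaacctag
Psme1: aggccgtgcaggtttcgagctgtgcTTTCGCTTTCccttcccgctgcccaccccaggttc
Erap1: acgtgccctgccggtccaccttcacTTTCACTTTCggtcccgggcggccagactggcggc
Ctss: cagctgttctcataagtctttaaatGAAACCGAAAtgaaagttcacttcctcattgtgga
H2-T23: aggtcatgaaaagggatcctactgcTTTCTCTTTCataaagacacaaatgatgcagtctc

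The kappa B letters, GGGG followed by any base and TTCCC, were searched on both strands and found in 1 of the 35, H2-K1, against 0.536% of all windows. Psmb9 and Tap1 lie head to head, so 1 stretch of 225 bases separates their starts. It is shown on the plus strand, at chr17:34187331-34187555, with the CCAAT box nearest the Psmb9 start in capitals.
Psmb9 and Tap1: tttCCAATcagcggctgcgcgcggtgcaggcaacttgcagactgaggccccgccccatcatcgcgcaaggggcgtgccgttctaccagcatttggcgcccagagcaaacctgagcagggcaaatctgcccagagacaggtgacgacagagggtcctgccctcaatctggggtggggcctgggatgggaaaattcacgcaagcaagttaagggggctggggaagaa

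Antigen presentation genes were slightly lower on the psyllium array across class I, class II and the processing machinery. Values are normalised intensities, and each difference is the psyllium value minus the control value after log2 conversion. Of the 48 members, 29 were bright enough to be read, meaning that the higher of the 2 intensities reached 69.5, the median of that quantity over all genes. Among these 29 the difference was negative for 26 and positive for 3, beside 56.6% negative among the 11090 genes past the same filter and 42.7% positive. H2-Q1 and H2-M2 passed on the control array alone, and of the 27 members above the filter on both arrays 24 were negative. Of the 19 members too dim to pass, 9 were negative and 10 positive. The median of the 29 was -0.21, against -0.04 for all genes past the filter. At a threshold of 0.32 on the log2 scale, a ratio of 5 to 4, 9 members were lower and 2 were higher, where 10.7% of all genes were as much lower and 10.6% as much higher. Of the 27 members above the filter on both arrays, 7 were as much lower and 2 as much higher. The shares over all genes above it on both arrays were 10.1% and 8.62%. At 1.5-fold, 2 members were lower (2.43% of all genes) and 0 were higher (4.02%). Of these 2, H2-Q1 passed on the control array alone, so the filter fixed its direction. Nearly all members therefore differed by small steps, and few by large ones. On the log2 scale the SD of the difference across all genes past the filter was 0.33, so most single members lay inside the spread of genes in general.

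**Figure D1:**
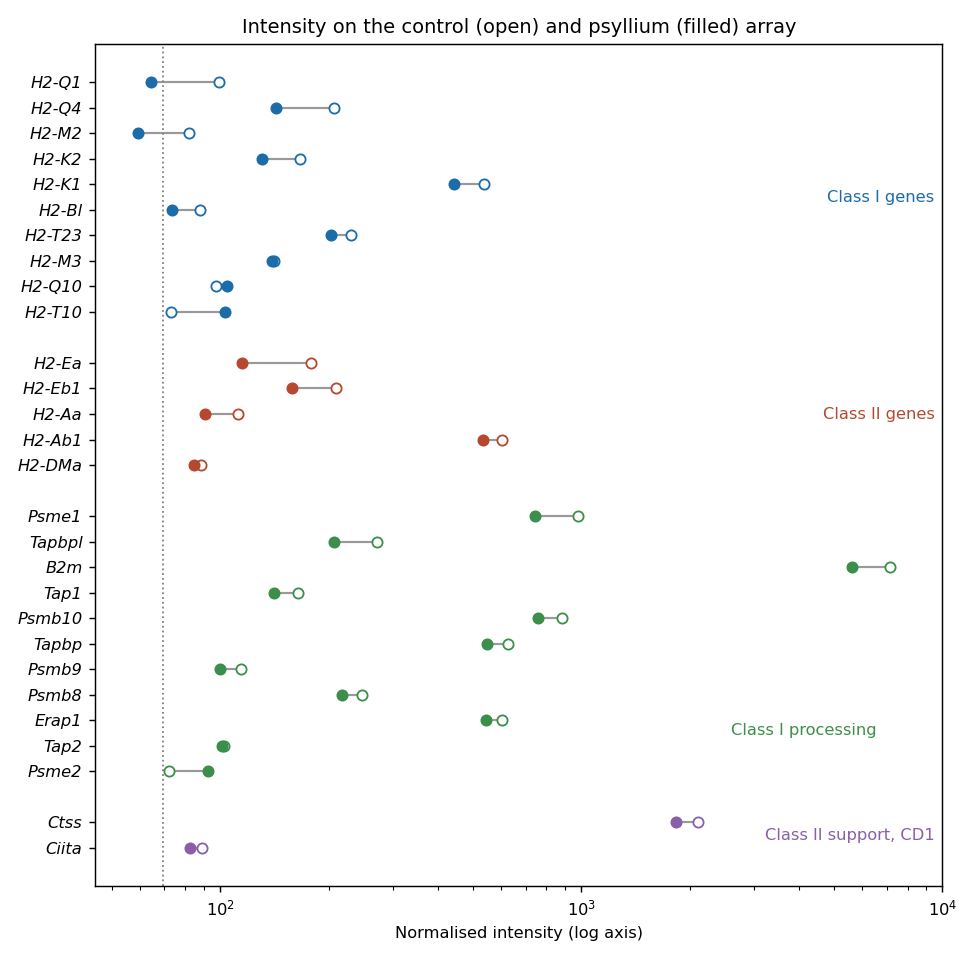
Normalised intensity (log axis) of the 28 antigen presentation members past the filter for control (open circles) and psyllium (filled circles), 1 array each; the dotted line is the filter at 69.5. Filled circles lie left of open ones for all but H2-Q10, H2-T10 and Psme2.

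The class I heavy chains differed among themselves in size and direction. Classical class I was measured alone by H2-K1, the K heavy chain, which read 537 with the control diet and 445 with psyllium. From here on the control value comes first. This is a difference of -0.27, or 1.21-fold lower. H2-K2, an adjoining gene similar to it, read 166 and 130, a difference of -0.35. Both K genes were above the filter on both arrays and were lower with psyllium.

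The H2-Q genes encode nonclassical class I chains. H2-Q1 read 99.1 and 64.1 (1.55-fold lower), with its psyllium value below the filter, and only 2.03% of all genes past the filter had a difference as low. H2-Q4 read 207 and 143, a difference of -0.53. Its dimmer probe set read 51.7 and 45.7, a smaller difference of -0.18. H2-Q10, a secreted chain made chiefly by the liver, read 97.0 and 104 (0.09), whereas its dimmer probe set read 43.9 and 36.4 (-0.27). The direction of H2-Q10 therefore depended on the probe set. H2-Q5 was below the filter at 53.7 and 44.3.

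Of the other 5 class I genes past the filter, with H2-T, H2-M or H2-Bl symbols, 3 were lower, 1 was level and 1 was higher. H2-T23 encodes Qa-1, which is seen by the inhibitory receptor pair Klrd1 and Klrc1 of natural killer cells. It read 230 and 203, a difference of -0.18. H2-Bl read 87.6 and 73.6 (-0.25). H2-M2 read 81.6 and 59.2 (-0.46), the latter below the filter. H2-M3, which presents formylated peptides of bacteria, read 141 and 139 (-0.02), with no settled direction: it ranged from -0.02 to 0.05 over the alternative settings. H2-T10, a ligand of some gamma-delta T cell receptors, was the class I gene furthest in the other direction, at 73.2 and 103 (1.41-fold higher). H2-T10 lay barely above the filter on the control array.

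In all, 8 of the 10 class I genes past the filter had negative differences, with a median of -0.26, 4 lower by at least 0.32 and 1 as much higher. Of all genes past the filter 56.6% were negative, 10.7% as much lower and 10.6% as much higher. The same shares apply to the counts of groups and lists past the filter below. Without H2-Q1 and H2-M2, which passed on the control array alone, 2 of 8 were lower by that much and the median was -0.22. Over all 22 class I genes measured the median was -0.13. The other 12 of the 22 class I genes were too dim, their higher intensities lying between 7.97 and 67.0. Among those 12 the differences were negative for 6 and positive for 6, from -0.28 to 0.39. They are mostly H2-M genes, many of which are known for expression outside the gut. Class I genes resemble each other closely in sequence, so a probe set that names 1 of them may also read its relatives, and single values are uncertain to that extent.

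All 5 class II genes past the filter were lower on the psyllium array. The beta chain H2-Ab1 read 601 and 533, a difference of -0.17, and its partner H2-Aa, the alpha chain, read 112 and 90.5 (-0.30). The beta chain H2-Eb1 read 209 and 158 (1.33-fold lower). H2-Ea, the alpha chain that pairs with H2-Eb1, read 178 and 115 (1.55-fold lower), and 2.00% of genes past the filter were as low. So the E pair stood further from the control than the A pair. In some mouse haplotypes, such as that of the reference strain C57BL/6, a deletion silences H2-Ea.

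The peptide editor of class II, H2-DM, was split by brightness. Its alpha chain H2-DMa read 88.1 and 84.3, a difference of -0.06. The beta chains were dim on both arrays, with H2-DMb1 at 29.0 and 19.4 and H2-DMb2 at 47.7 and 30.5. These close copies are hard to tell apart by probes. H2-Oa and H2-Ob, chains of the H2-O inhibitor of H2-DM that B cells make, were dim as well, at 38.3 and 48.3 and at 34.0 and 39.4. H2-Eb2 (40.1 and 32.9) and the pseudogene H2-Pb (17.1 and 20.1) completed the class.

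The median of the 5 class II genes past the filter was -0.30. Of these 5, 2 were lower by at least 0.32 (10.7% of all genes) and 0 as much higher (10.6%). Over all 11 class II genes measured the median was -0.29, with 8 negative. The 6 dim ones ran from -0.65 to 0.34, and 3 of them were negative.

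Genes that make and load class I peptides were mostly lower, by small amounts: 10 of 11 had negative differences, Tap2 among them at a value near 0. The common light chain B2m was the brightest member, with 7176 for control and 5628 for psyllium (1.28-fold lower, a difference of -0.35). Of all genes past the filter 8.87% were as low. The 2 chains of the peptide transporter differed: Tap1 read 164 and 141 (-0.22), whereas Tap2 read 102 and 101 (-0.01) and ranged from -0.02 to 0.03 over the alternative settings. Tap1 was thus lower and Tap2 had no settled direction.

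The loading and trimming factors among the members were lower at the probe sets that name them alone. The loading factors Calr (0.26) and Pdia3 (0.21), which are not members, were higher and are given below. Tapasin, Tapbp, which bridges TAP to the class I chain, read 628 and 547 (-0.20), and its other probe set read 115 and 84.1 (-0.45). Tapbpl, a tapasin-related peptide editor, read 271 and 206 (1.31-fold lower). Erap1, which trims peptides in the endoplasmic reticulum, read 604 and 544 (-0.15).

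The 3 inducible catalytic subunits of the immunoproteasome lay close together. Psmb8 read 247 and 217 (-0.19), Psmb9 read 114 and 100 (-0.19), and Psmb10 read 881 and 757 (-0.22). The constitutive subunits that they replace were nearly level: Psmb5 read 213 and 206 (-0.05), Psmb6 read 296 and 301 (0.02) and Psmb7 read 477 and 499 (0.06). The difference of each inducible subunit minus that of its counterpart was -0.14 for Psmb8, -0.21 for Psmb9 and -0.28 for Psmb10. The constitutive proteasome and its other caps had 14 of 15 measured genes past the filter, with a median of -0.02. Of these 0 passed 0.32 in either direction, and the range ran from -0.21 (Psmb2 and Psme3) to 0.27 (Psme4).

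The PA28 cap, which opens the proteasome to peptides, was divided between its subunits. Psme1, the alpha subunit, read 979 and 746 (1.31-fold lower), among the largest negative differences of the processing genes. Psme2, the beta subunit of the same ring, read 72.2 and 92.2 (1.28-fold higher) and was the 1 processing gene in that direction. Psme2 was near the filter on the control array. The median of the 11 processing genes was -0.20. Of these 11, 3 were lower by at least 0.32 (10.7% of all genes) and 1 as much higher (10.6%). With the intensity trend removed the count of 3 became 1, and with centring it became 2.

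Class II support genes differed little. Cathepsin S, Ctss, which cuts the invariant chain, read 2104 and 1833 (-0.20). Ciita, the master regulator of class II transcription, read 88.9 and 82.4 (-0.11). Cd1d1, the class I-like molecule that shows lipids to natural killer T cells, was dim on both arrays, at 19.4 and 27.5. Neither gene past the filter reached 0.32. H2-Ke6, a steroid dehydrogenase gene whose symbol places it in the H2 region, presents no antigen and read 178 and 154 (-0.21).

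**Figure D2:**
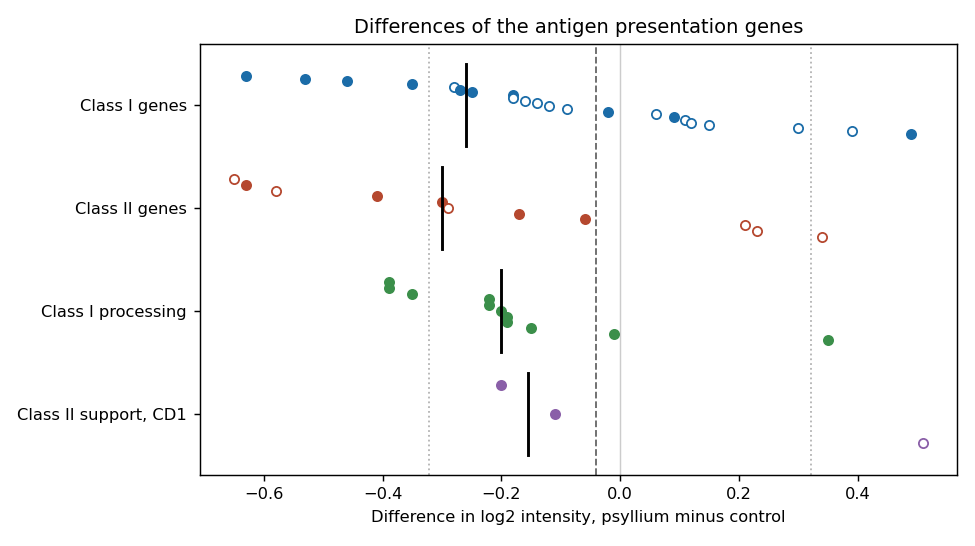
Difference in log2 intensity of the 47 antigen presentation members by group; filled points are past the filter, open points below it. Black bars are medians of the filled points (-0.26, -0.30, -0.20 and -0.15), the dashed line is the median of all genes past the filter (-0.04), and dotted lines mark 0.32 in either direction.

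The medians of class I, class II and processing genes lay close together, with no test of the gaps. Class I minus class II was 0.04, class I minus processing was -0.06 and class II minus processing was -0.10. Class I genes past the filter ran from -0.63 to 0.49, class II genes from -0.63 to -0.06, and processing genes from -0.39 to 0.35.

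Most H2 genes stand in 1 stretch of chromosome 17 together with other genes. Between H2-K2 and H2-M2 lay 38 members, Tap1, Tap2, Psmb8 and Psmb9 among them, and 140 other measured genes. The 20 members past the filter had a median of -0.21, with 18 negative and 6 lower by at least 0.32. The 78 other genes past it had a median of -0.11, with 48 negative and 13 as much lower. Of those 78, 6 were lower by at least 1.5-fold and 2 were as much higher. The 6 were the predicted gene Gm11127 (97.9 and 50.1), which lies between H2-T23 and H2-Bl, the butyrophilin gene Btnl2 (185 and 114), the ubiquitin ligase genes Trim31 (473 and 284) and Trim40 (176 and 95.6), the small RNA gene Snord52 (141 and 90.9) and the lymphotoxin chain Ltb (100 and 65.3). The 2 were the matrix gene Tnxb (141 and 223) and the olfactory receptor gene Olfr93 (48.2 and 77.2). Gm11127 and Ltb passed the filter on the control array alone and Olfr93 on the psyllium array alone, so the filter fixed their directions. These genes were named after their values were seen.

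**Figure D3:**
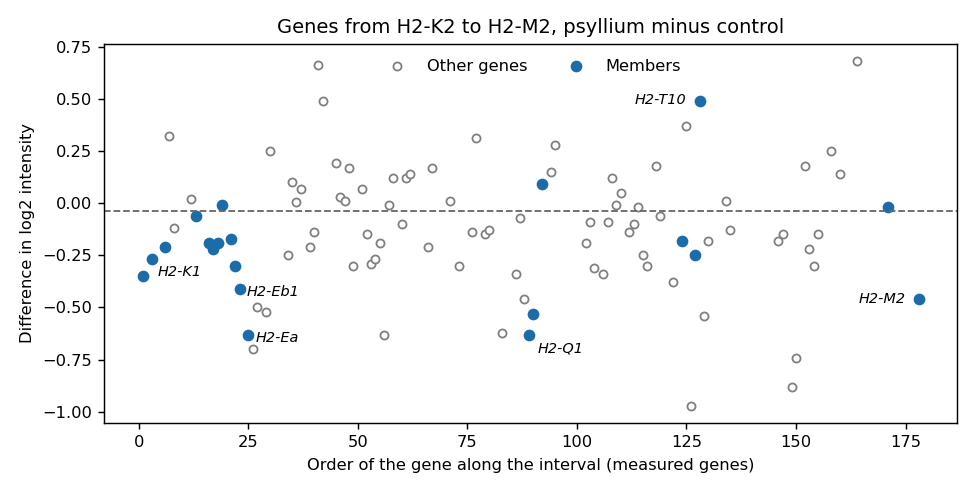
Difference in log2 intensity (vertical axis) of genes past the filter against their order along chromosome 17 from H2-K2 to H2-M2, counted over measured genes; filled points are the 20 members, open points the 78 other genes, and the dashed line is the median of all genes past the filter. Members lie below the line except H2-Q10, H2-T10, H2-M3 and Tap2.

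Other genes of the class I route had a median close to that of all genes. Of 14 listed genes 13 were measured and 10 were past the filter, with a median of -0.02, 1 lower by at least 0.32 and 1 as much higher. The endoplasmic reticulum chaperone Calr, which holds the class I chain during loading, read 2258 and 2696 (0.26), and the disulphide isomerase of the same complex, Pdia3, read 1627 and 1886 (0.21). The class I-like molecule Mr1, which shows vitamin B metabolites, read 178 and 228 (0.36). Fcgrt, the heavy chain of the neonatal Fc receptor, also pairs with B2m and read 724 and 573 (-0.34).

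The endosomal side of class II was also mostly level. Of 15 listed enzymes and regulators 11 were past the filter, with a median of -0.10, 1 lower by at least 0.32 and 0 higher. The 1 was Ifi30, a thiol reductase that unfolds endosomal antigen, at 490 and 370 (-0.40). Rfxank, a subunit of the complex that binds the X box of class II promoters, read 241 and 202 (-0.26), and Marchf8, a ubiquitin ligase acting on class II, read 366 and 306 (-0.26). Ctsd, an aspartic protease of endosomes, read 930 and 794 (-0.23).

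Interferon signalling and response genes were in most cases lower. Of 12 listed signalling genes 11 were measured and 9 were past the filter. Their median was -0.22, with all 9 above the filter on both arrays, 3 lower by at least 0.32 and 0 higher. Irf9, the DNA-binding part of the type I interferon transcription complex, read 263 and 179 (-0.55), and Stat2, of the same complex, read 206 and 154 (-0.42). Ifngr2, a chain of the interferon gamma receptor, read 1294 and 947 (-0.45), and Irf8 read 313 and 253 (-0.30).

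Of 25 listed interferon-response genes 21 were measured and 14 were past the filter, with a median of -0.54 and 9 lower by at least 0.32. Of these 14, 6 passed on the control array alone, where they were brighter. The 8 above the filter on both arrays had a median of -0.38, with 7 negative and 4 lower by at least 0.32. Ifit1 (393 and 199), Oasl2 (187 and 102), Iigp1 (78.8 and 45.9) and Rsad2 (115 and 67.8) had the largest differences. Iigp1 and Rsad2 were among the 6 that passed on the control array alone, so the filter fixed their directions. Interferon gamma itself, Ifng, was below the filter at 29.5 and 25.3, and so was Nlrc5, the class I regulator, at 40.0 and 37.3. Members with the interferon element letters shown above differed by -0.35 (B2m), -0.39 (Psme1), -0.15 (Erap1), -0.20 (Ctss) and -0.18 (H2-T23). Over all genes past the filter with a promoter window, the 314 holding these letters had a median of -0.08 and the 8408 without them one of -0.04. For the CCAAT letters the medians were -0.05 with them (3666 genes) and -0.04 without (5056 genes).

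**Figure D4:**
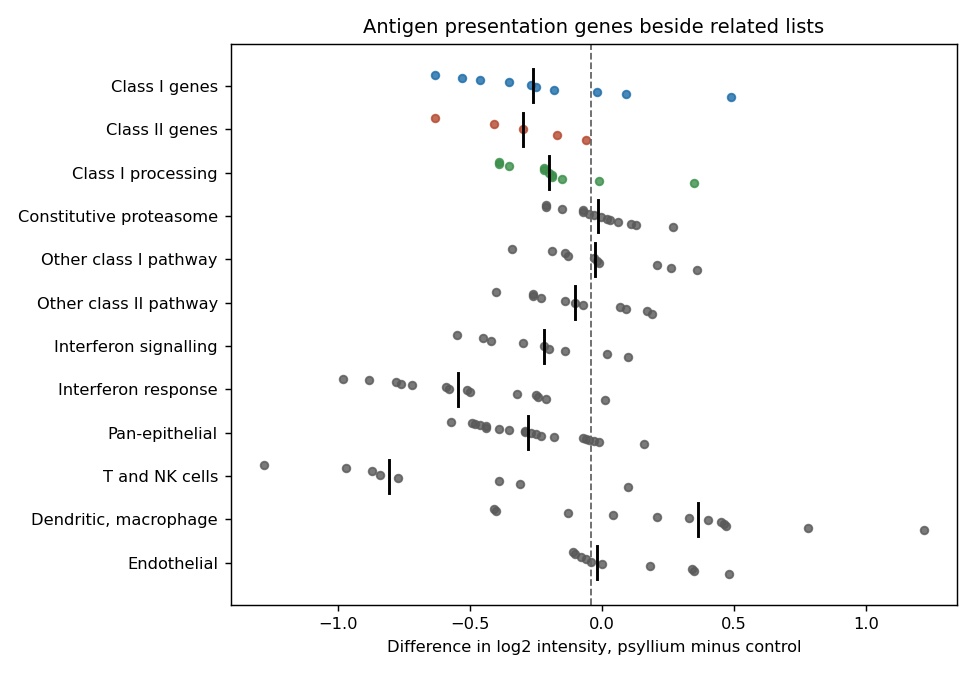
Difference in log2 intensity of single genes past the filter (points) and their medians (black bars) for class I, class II and processing genes beside related pathway and marker lists; the dashed line is the median of all genes past the filter. The constitutive proteasome median is -0.02, that of interferon-response genes -0.54 (-0.38 above the filter on both arrays), and that of dendritic cell and macrophage markers 0.37 (0.33).

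The cell types that make or read these molecules did not all differ in the same direction. In bulk RNA fewer cells of a type and less RNA per cell cannot be told apart. Pan-epithelial markers, of which 20 of 20 were past the filter, had a median of -0.28, with 19 negative and 8 lower by at least 0.32. Their summed intensity was 33196 on the control and 28320 on the psyllium array. Cldn4 (-0.57), Cdx2 (-0.49), Hnf4a (-0.48) and Vil1 (-0.46), all genes of the intestinal epithelium, differed most. Other bright markers were nearly level, such as Epcam (-0.07), Krt8 (-0.03) and Krt18 (-0.01), and Phgr1 was higher (0.16). The MHC medians thus lay near the median of the epithelial markers, which differed among themselves. The part of the epithelium in the MHC medians was not tested.

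In the joint list of dendritic cell and macrophage markers, the class II makers of the gut wall, most genes were higher, though not all. Of 18 listed 17 were measured, with a summed intensity of 2561 and 2804. The 12 past the filter had a median of 0.37 (0.33 for the 9 above it on both arrays). Of the 12, 7 were higher by at least 0.32 and 2 as much lower. Of the 9 above it on both arrays, 5 were as much higher and 1 as much lower. Mrc1 (117 and 272) and Cd163 (54.5 and 93.3, above the filter on the psyllium array alone), scavenger receptors of resident macrophages, led, followed by Adgre1 (77.1 and 107) and Sirpa (162 and 222). The 2 lower genes were Mertk (540 and 406) and Itgax (81 and 61.4, above the filter on the control array alone). The dendritic cell marker Cd209a read 632 and 579 (-0.13), so the higher median does not describe every dendritic cell marker. B cell markers were dim: of 10 listed 9 were measured and 0 were past the filter. Their median was -0.18 and their summed intensity 316 and 260. All 9 were negative, beside 50.2% of all genes without a filter. Cd79b (-0.06), Cd22 (-0.04), Cd79a (-0.03) and Fcrla (-0.02) were nearly level. Of 8 measured follicle markers 3 were past the filter, Ltb and Ccr7 (70.6 and 58.0) on the control array alone. The chemokine Cxcl13, which draws B cells into follicles, was above it on both arrays, at 384 and 206. The part of these cells in the class II differences was not tested.

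Genes of the cells that read MHC were in most cases lower. Of 18 T and NK cell markers 16 were measured, with a summed intensity of 1316 and 876. The 8 past the filter had a median of -0.80 (-0.87 for the 5 above it on both arrays), with 6 lower by at least 0.32 and 0 higher. Of these 8, 3 passed on the control array alone, so the filter fixed their directions. Of the 5 above it on both arrays, 4 were lower by at least 0.32 and 0 higher. Cd3e (175 and 72.0), Ccl5 (139 and 70.9), Cd7 (142 and 77.4) and Cd3g (148 and 82.8) differed most. Among the 8 only Nkg7 was higher, at 72.7 and 78.1. Of the dim markers, the CD3 chain Cd3d was higher (23.9 and 31.8) and Cd8b1 was level (61.0 and 60.9). Over all 16 measured, 14 were negative. Among 12 receptor genes for MHC and CD1 molecules 11 were measured and 5 were past the filter. The Qa-1 receptor chain Klrd1 read 87.1 and 51.1 and the CD4 coreceptor, Cd4, 76.0 and 61.5, whereas Pirb, an inhibitory class I receptor of myeloid cells, read 56.9 and 96.5. Klrd1 and Cd4 passed the filter on the control array alone and Pirb on the psyllium array alone, so the filter fixed their directions. The 2 above it on both arrays were Cd3e and Cd3g, both lower.

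Other wall cells were read on the same arrays. Medians past the filter were 1.19 for 15 smooth muscle markers, 1.18 for 13 fibroblast and matrix markers, -0.37 for 15 absorptive colonocyte markers, -0.02 for 10 endothelial and -0.17 for 5 adipocyte markers. The largest difference within each list, in the same order, was that of Actg2 (745 and 3293), Fn1 (404 and 2464), Aqp8 (307 and 50.5), Eng (181 and 253) and Car3 (191 and 289). For the 4 adipocyte markers above the filter on both arrays the median was 0.05. No listed gene was at 0 on either array, and the part of these tissues in the antigen presentation values was not tested.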

How the data were processed

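Per the submitters' processing notes, RMA and Affymetrix Expression Console were used, with no versions. The deposited values are normalised intensities on a linear scale, and the annotation and build the authors used are not given in the sources used here. Median intensities were 48.9 (control) and 49.8 (psyllium) over 41345 probe sets. Differences are log2 of the deposited intensity, psyllium minus control, with no pseudocount. If the authors equalised the arrays, the values hide any shift common to most transcripts. The number of arrays limits the precision.

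Of 41345 probe sets 23521 named 1 gene in GEO's platform annotation, 1814 several and 16010 none here; 23328 were found by gene number in the RefSeq table (GRCm38.p6). A gene was read at the probe set with the highest mean. Members past the filter were all named, and of each of 16 other lists (220 of 238 entries measured) up to 4 genes with the largest difference. Members and lists were chosen with earlier results of these data known. Counting was tested on simulated data (Python 3.11.15, pandas 2.3.3) with large known differences placed in bright genes. This checks the counting step only, not small differences, dim genes or the threshold of 0.32. Members were counted past 0.32 on the log2 scale and past 1.5-fold. Alternatives covered probe sets, filter, scaling, trend and pseudocount. Values for genes above the filter on both arrays were added after seeing the data.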

Additional observations from a re-analysis of the deposited data

Results flagged for a closer look

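A signal stood above the control array in a probe set that the comparison left out because it names several genes. That probe set names Psme2 together with 9930111J21Rik1 and 9930111J21Rik2. It read 146 on the control and 194 on the psyllium array, a difference of 0.41, beside 0.35 for the probe set that names Psme2 alone.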

How the results depend on the processing

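The 4 group medians kept a negative sign under all 8 alternatives, 1 of them (a filter on both arrays) added after seeing the data, from -0.27 to -0.13 for class I, -0.31 to -0.26 for class II, -0.22 to -0.16 for processing and -0.15 to -0.11 for class II support genes. Of 64 alternative values 61 lay within 0.17 of the original median or within 1.5 times the original count. This includes the class I median of -0.13 without a filter. The 0.17 is the median gap between probe sets of a gene. It is near the size of the smaller group medians, and the support gene count was 0 in every setting. The 61 of 64 therefore says little about stability, and the ranges above say more. With the filter on both arrays 2 class I genes were lower by at least 0.32 in place of 4. Without an intensity filter 4 class II genes were as much lower in place of 2, since more genes were counted. With the intensity trend removed 1 processing gene, Psme1 (-0.34), was past that threshold in place of 3, with Tapbpl at -0.32, just short of it, and B2m at -0.29. Centring subtracts the median difference, so it set the share of all genes with negative differences to 50% by construction, from 56.6%. Of 29 members past the filter 27 had 1 sign in the settings where they passed, and H2-M3 and Tap2 did not. H2-Q10 did not pass with the mean of its probe sets, so that setting gives it no value. The difference of H2-Q4 became -0.35 with the mean of its probe sets. No paired analysis was possible because each diet has 1 array.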

Other observations

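Of 10 probe sets that name several genes including a member or another H2- gene, 8 were past the filter, 6 with negative and 2 with positive differences. The classical heavy chain H2-D1, named with H2-Q2, read 295 on the control and 221 on the psyllium array, a difference of -0.42. H2-T3 with H2-T18, the thymus leukaemia antigen that intestinal epithelium is known to make, read 935 and 730 (-0.36). H2-T22 with H2-T9, ligands of gamma-delta T cell receptors, read 72.5 and 55.2 (-0.39). H2-Q7, H2-Q8 and H2-Q9 together read 913 and 791 (-0.21), and in a second probe set, below the filter, 35.6 and 39.6 (0.15). H2-Q6 with H2-Q8 read 73.4 and 38.6 (-0.93), with the psyllium value below the filter. The invariant chain Cd74, named with Mir5107, read 989 and 826 (-0.26). Tapbp with Zbtb22 read 69.2 and 73.3 (0.08). H2-T22 with H2-T9 and H2-Q6 with H2-Q8 passed the filter on the control array alone. Tapbp with Zbtb22 passed on the psyllium array alone. The filter fixed the directions of these probe sets, which are part of the counts of 6 and 2.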
